A study of Drosophila melanogaster with 8 samples.

Results

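The comparison described here asks what adding simjang (simj) changes in eye-antennal discs that are already driven to express vestigial (vg). It sets the 2 arrays of ey-GAL4 discs with UAS-vg and UAS-simj (vg_simj) against the 2 arrays of ey-GAL4 discs with UAS-vg and UAS-lacZ (vg). The members are all probe sets, other than the array's own controls, with a signal above that array's median on at least 2 of these 4 arrays. This rule kept 9612 of 18769 probe sets, of which 8449 were above the median on all 4 arrays, 564 on 3 and 599 on 2. A single gene symbol was attached to 8310 of them, which covered 7647 genes, while 241 had several symbols and 1061 had none. At the edge of the rule, the probe set just inside had signals of 45.8 and 3.7 in vg and 42.8 and 14.6 in vg_simj. The one just outside had 45.5 and 25.5 in vg and 13.8 and 37.9 in vg_simj.

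The study used Drosophila melanogaster larvae that had reached the wandering stage of their last instar, and dissected 100 pairs of eye-antennal discs for each sample. Each sample was 100 ng of total RNA, amplified and labelled with biotin, on 1 Affymetrix array, so each array is a pool of animals. The study's other 2 groups, lacZ (ey-GAL4 with UAS-lacZ on both responder chromosomes) and simj (ey-GAL4 with UAS-lacZ and UAS-simj), complete the design at 2 biological replicates a group. Every group therefore carried ey-GAL4 and a pair of UAS responders, and vg_simj differed from vg by UAS-simj in place of the remaining UAS-lacZ. The effect of adding simj cannot be told apart from that of losing UAS-lacZ. The ey-GAL4 driver acts where the enhancer of eyeless is active, so cells of the same disc outside that domain carried the UAS transgenes without the driver being active.

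Vestigial is the transcriptional cofactor that pairs with the DNA-binding protein Scalloped and selects wing fate in the wing disc. Driven in other discs, it can start parts of the wing programme there. Simjang is the fly p66 subunit of the NuRD complex, which joins a nucleosome-remodelling ATPase to a histone deacetylase. In the eye disc a morphogenetic furrow sweeps forward and leaves differentiating photoreceptors behind it, under a retinal determination network and Notch, EGF receptor, Dpp and Hedgehog signalling.

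The deposited values were MAS5 signals, each array scaled to a 2% trimmed mean of 500. The median signal of an array ranged from 36.55 to 46.3, and the upper quartile from 546.2 to 566.1. The correlation between replicates over these probe sets ran from 0.955 in vg to 0.974 in simj and was 0.968 in vg_simj. The median absolute log2 difference between replicates was 0.187 to 0.247. None of 13 eye-antennal disc markers was below the array median on all 4 arrays of the comparison. With 2 arrays against 2, an exact permutation test of a single probe set could not go below p = 0.333 two-sided, so calls rest on limma fitted across all probe sets, in which the 4 groups share a spread with 4 residual degrees of freedom. Changes are given as log2 changes of signal + 2.8, as vg_simj minus vg, with their standard errors (SE) and Benjamini-Hochberg adjusted p over the 9612 probe sets. A change was called at an adjusted p under 0.05, and this scale understates changes of dim probe sets.

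The transgenes were read first. The simj probe set had 594.9 and 678.9 in vg and 1076.9 and 911.8 in vg_simj, with 478.6 and 727.4 in lacZ and 1260.3 and 1062.8 in simj. All 4 arrays of UAS-simj discs lay above all 4 arrays without it. The log2 change from vg to vg_simj was 0.64 ± 0.22 and was not called (limma, adjusted p = 0.337). The first vg probe set read 233.9 and 258.8 in vg and 401.1 and 432.1 in vg_simj, against 16.6 to 29.4 on the 4 arrays without UAS-vg. The other vg probe set had 197.9 and 227.7 in vg and 378.1 and 428.4 in vg_simj, against 2.5 to 9.9 elsewhere. Both were higher in vg_simj on both arrays, by 0.75 ± 0.27 (adjusted p = 0.369) and 0.91 ± 0.48 (adjusted p = 0.620), neither of them called. The gene behind the driver, ey, overlapped between the groups, with 541.0 and 578.9 in vg and 550.6 and 681.5 in vg_simj. The labels therefore matched both transgenes on every array.

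Among the probe sets called when simj was added to vg discs, far more were lower than higher. Below that cutoff the directions were nearer to even. Of 7647 genes, 407 were lower and 361 higher at an unadjusted limma p under 0.05. Over all these genes, 3644 log2 changes were negative and 4003 positive. Of 9612 probe sets, 95 (0.988%) were called, 79 (0.822%) of them lower and 16 (0.166%) higher, while 947 passed an unadjusted p of 0.05. Of the 95, 17 passed the filter on low signals only through the group in which they were high, so that a difference was partly given by the filter. They were 13 falls above the array median only in vg (with miple1, mthl8, nolo, CG31207, onecut, kat-60L1, klg and Sidpn) and 4 rises above it only in vg_simj (Jig, Drs, CG6282 and Ir76a). Among the falls were the photoreceptor regulators gl, ro, svp and lz, the receptor gene sev, and neuronal genes such as Appl, Ank2, nerfin-1 and onecut. Among the rises were the antifungal peptide gene Drs and the genes Jig, Vajk2 and Vajk3. The median probe set of the 79 falls read 412.3 and 480.8 in vg and 122.9 and 130.2 in vg_simj, where all probe sets had a median log2 change of 0.01. The median log2 change of the falls was -1.84 (range -5.14 to -0.74), and 76 of 79 exceeded 2-fold. The 16 rises had a median log2 change of 1.74 (0.81 to 6.88), and 14 of 16 exceeded 2-fold.

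All 79 falls and all 16 rises were free of overlap between the 2 groups. The calls were made on these same arrays, so this followed largely from the call and adds no separate support. Over all probe sets, both vg_simj arrays were below both vg arrays in 17.7% and above them in 18.9%. With each gene taken once, at its brightest probe set, 76 of 7647 genes (0.994%) were called. Over all probe sets the falls covered 67 genes and 9 probe sets without a single symbol. The rises covered 10 genes and 5 such probe sets. In RNA from whole discs, fewer cells of a type and less RNA per cell cannot be told apart.

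The number of calls depended on single arrays of the comparison. It was 22 without vg replicate 2, 27 without vg_simj replicate 1 and 33 without vg_simj replicate 2, and 79 (32 higher, 47 lower) without vg replicate 1. Without each lacZ or simj array in turn it was 73 to 88. Of the 95 calls, 14 were kept when each of the 8 arrays was left out in turn, 12 of them lower and 2 higher. With a gene symbol these were miple1, mthl8, CG31207, nerfin-1, Ekar, gogo, superdeath, CG31676, gl and, among the rises, Drs. The names superdeath and CG31676 were added after their values were seen.

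**Figure D1:**
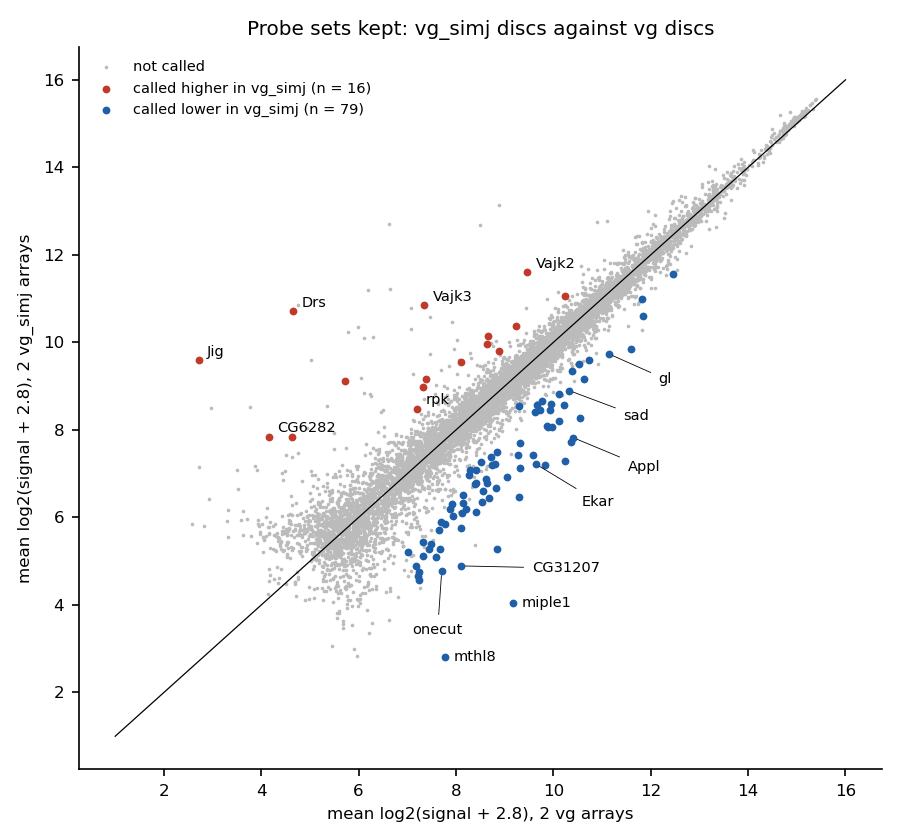
Mean log2(signal + 2.8) of the 2 vg arrays (horizontal) against that of the 2 vg_simj arrays (vertical) for the 9612 probe sets, with the diagonal of no change. The 79 called lower (blue) lie below the diagonal, with mean vg signals of 127.2 to 5608, and the 16 called higher (red) lie above it up to Jig and Drs.

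Among the steep falls were miple1, mthl8 and CG31207, and in each of them vg_simj was far below the other 3 groups. The gene miple1 encodes a secreted growth factor of the midkine and pleiotrophin family. It read 547.2 and 608.9 in vg and 14.2 and 13.1 in vg_simj, and its 2 vg_simj arrays were also far below the lacZ arrays (957.9 and 1004.7) and the simj arrays (421.8 and 362.9). Its log2 change was -5.14 ± 0.17 (limma, adjusted p = 2.69e-05).

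The gene mthl8 encodes a receptor of the methuselah-like family. Its signals were 235.1 and 197.6 in vg and 5.1 and 3.5 in vg_simj, with 414.1 and 437.7 in lacZ and 317.0 and 267.4 in simj. Only the vg_simj arrays were below the median signal, and the log2 change was -4.95 ± 0.25 (adjusted p = 0.000296). A second mthl8 probe set had 173.1 and 123.4 in vg and 27.9 and 17.8 in vg_simj, a log2 change of -2.57 (adjusted p = 0.0102).

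CG31207 had 270.5 and 274.5 in vg and 27.2 and 26.6 in vg_simj, against 453.9 and 434.7 in lacZ and 333.1 and 365.6 in simj. The replicates were close in every group, and the log2 change was -3.21 ± 0.18 (adjusted p = 0.000402). All 3 genes were below the array median in vg_simj, and with a pseudocount of 64 their log2 changes were -3.05, -2.03 and -1.89. Together with Ekar, they were the named genes whose call was kept under every setting that tested them. Ekar was tested under all 21 settings. The other 3 were tested under 20, since the stricter filter at the 75th percentile left them out.

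**Figure D2:**
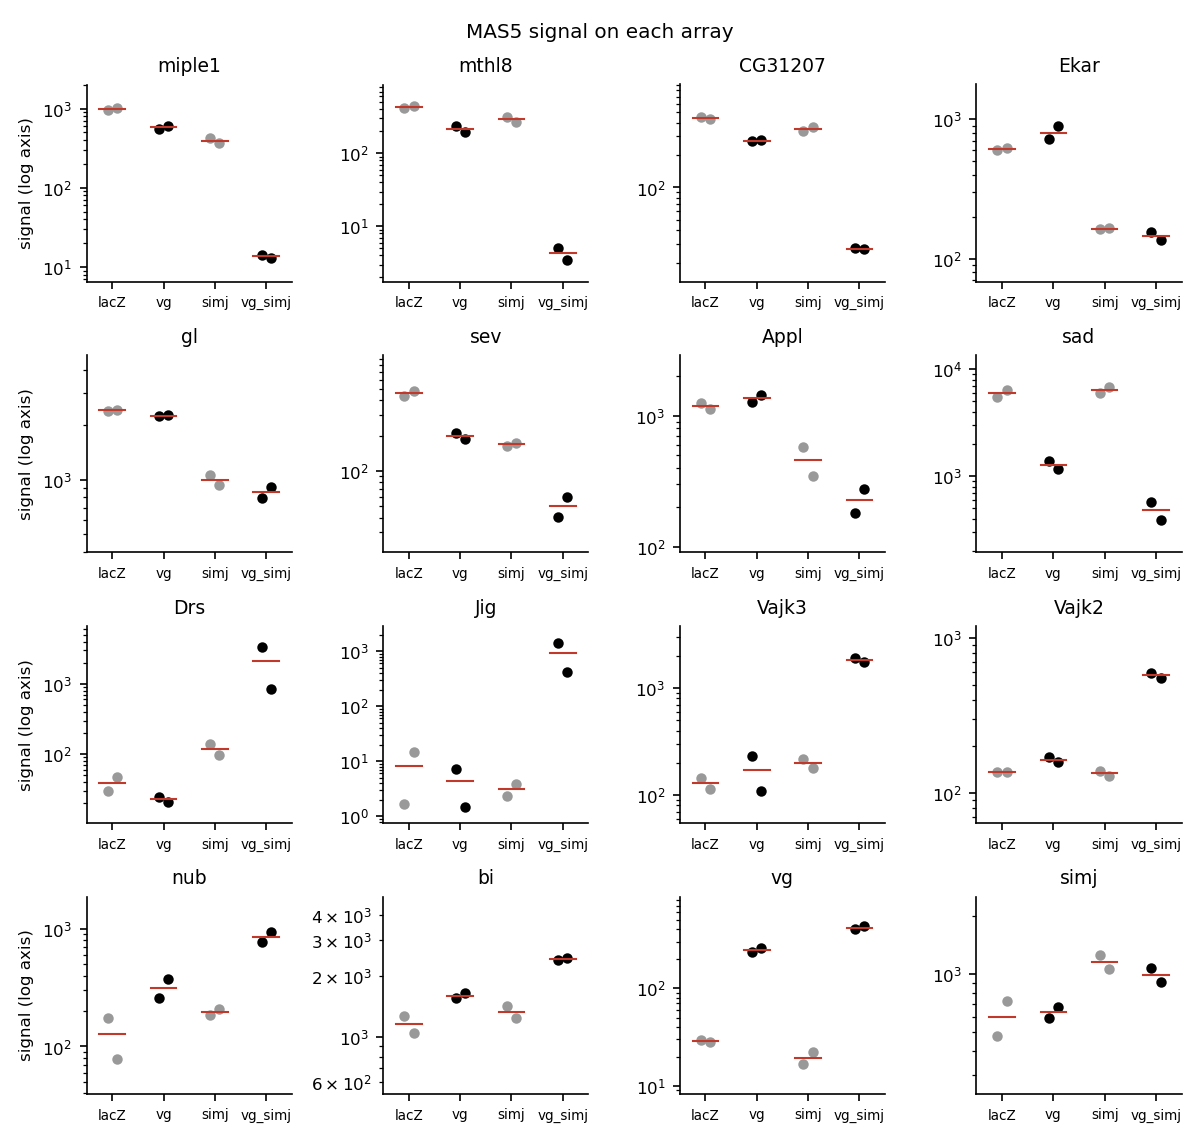
MAS5 signal on a log axis for 16 genes, one panel a gene, with each array as a point (black for vg and vg_simj, grey for lacZ and simj) and the mean of each group as a red line; each gene shows its probe set of smallest p. The vg_simj points of miple1, mthl8 and CG31207 stand far below those of the other 3 groups, those of Drs and Jig far above, and gl and Ekar are low in both groups that carry UAS-simj.

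Photoreceptor genes moved down as a group. Of 46 genes in this list 27 were measured, 10 were called lower and none higher, where 0.863% of all 7647 genes were called lower. The 10 include onecut, which passed the filter only through vg. Both vg_simj arrays were below both vg arrays in 21 of 27 (77.8%), against 17.5% of all genes, and 26 of 27 log2 changes were negative, with a median of -0.83. The median signal of the 27 genes was 585.6 and 776.2 in vg and 364.8 and 420.9 in vg_simj.

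The zinc-finger factor gl (glass), which photoreceptors need for their identity, had the smallest p of the list. It read 2241.7 and 2258.9 in vg and 794.9 and 910.6 in vg_simj. Its replicates were tight in both groups and the log2 change was -1.40 ± 0.13 (limma, adjusted p = 0.00516). The homeodomain gene ro, expressed in R2 and R5 among others, had 315.8 and 363.0 in vg and 95.9 and 120.9 in vg_simj, a log2 change of -1.63 ± 0.20 (adjusted p = 0.0118). The adhesion gene chp (chaoptin) had 435.6 and 644.1 in vg and 122.9 and 115.2 in vg_simj (-2.13 ± 0.25, adjusted p = 0.0102).

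The other called members were sorted by role after their values were seen. Among cell fate regulators, the orphan receptor gene svp had 352.0 and 376.3 in vg and 150.4 and 154.3 in vg_simj (-1.24, adjusted p = 0.0215). The Runx gene lz had 777.3 and 830.2 in vg and 346.6 and 415.2 in vg_simj (-1.08, adjusted p = 0.0391). The homeodomain gene pros, which marks R7 and cone cells, fell by 2.15 on the log2 scale (adjusted p = 0.0284). The receptor tyrosine kinase gene sev, which R7 requires, had 211.5 and 186.1 in vg and 40.5 and 60.5 in vg_simj (-1.94 ± 0.24, adjusted p = 0.0111). Its level was already lower in vg than in lacZ (436.0 and 484.2), so vg_simj was the lowest of the 4 groups. The remaining calls were onecut, nrv3 and aos, which are described with neuronal genes and with signalling.

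Several members of the list were not called. The bar homeobox gene B-H1 had a log2 change of -1.06 (adjusted p = 0.0655), phyl of -0.99 (adjusted p = 0.0565) and elav, which all neurons express, of -0.83 (adjusted p = 0.146). Arr2, an arrestin of mature photoreceptors, was the member with a positive change (0.45, adjusted p = 0.827). The count of 10 fell to 1 without vg replicate 2, 2 without vg_simj replicate 1, 4 without vg_simj replicate 2 and 5 without vg replicate 1. The call of gl was kept without each array in turn, and that of chp was lost without vg replicate 2 or either vg_simj array. The call of ro was lost without vg replicate 2 or vg_simj replicate 1.

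Neuronal genes were also lower in vg_simj discs. Of 41 genes in the list 33 were on the array and 24 passed the filter. Of these, 7 were called lower and none higher, beside the same 0.863% of all genes. The 7 include klg and onecut, which passed the filter only through vg, so their falls were partly given by it. Both vg_simj arrays were below both vg arrays in 18 of 24 (75%), against 17.5% of all genes, 22 of 24 log2 changes were negative and their median was -1.33. The median signal went from 233.4 and 278.6 in vg to 104.3 and 135.1 in vg_simj. The photoreceptor and neuronal lists share 4 genes, 2 of them called (onecut and nrv3).

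Called members of the list included Appl and Ank2. The gene Appl, the fly homologue of the amyloid precursor protein, had 1279.3 and 1444.3 in vg and 180.3 and 276.5 in vg_simj (-2.59 ± 0.28, limma adjusted p = 0.0078). Its vg arrays were close to lacZ (1255.4 and 1122.9), and the simj arrays (576.5 and 346.4) lay between these and vg_simj. The ankyrin gene Ank2 had 1213.4 and 1422.2 in vg and 250.6 and 175.6 in vg_simj (-2.63 ± 0.28, adjusted p = 0.0078). A second Ank2 probe set fell by 1.84 (adjusted p = 0.00995), while its remaining probe sets had changes of -1.18 (adjusted p = 0.520) and 0.31 (adjusted p = 0.942) and were not called.

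The axon guidance gene gogo had 706.7 and 833.0 in vg and 151.2 and 191.0 in vg_simj (-2.16 ± 0.20, adjusted p = 0.00524). The adhesion gene klg had 170.7 and 210.0 in vg and 33.5 and 29.2 in vg_simj (-2.50 ± 0.29, adjusted p = 0.00995). The microtubule-associated gene futsch (-1.55, adjusted p = 0.0378) and the sodium pump subunit gene nrv3 (-1.47, adjusted p = 0.0155) fell too. A second, dim futsch probe set had a change of 0.008 (adjusted p = 0.999) and was not called. On the called probe sets the groups did not overlap, which followed largely from the call. Among members not called were CadN (-1.84, adjusted p = 0.0565), Dscam1 (-0.48, adjusted p = 0.512), Nrg (-0.20, adjusted p = 0.687) and robo1 (-0.12, adjusted p = 0.887).

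The gene onecut is the last called member of the list, and the other genes of this paragraph are from outside it, named for the size of their fall. The zinc-finger gene nerfin-1, which acts in neuronal differentiation, had 517.2 and 759.3 in vg and 64.1 and 114.0 in vg_simj (-2.83 ± 0.29, adjusted p = 0.00634), and the simj arrays (284.2 and 310.8) were between these and lacZ (772.4 and 820.6). The homeodomain gene onecut had 194.9 and 217.9 in vg and 27.7 and 21.5 in vg_simj (-2.94 ± 0.31, adjusted p = 0.0078). The bHLH gene Sidpn had 125.8 and 175.8 in vg and 32.3 and 18.1 in vg_simj (-2.48 ± 0.41, adjusted p = 0.0391), and its call was lost whichever array was left out. The microtubule-severing gene kat-60L1 had 123.0 and 179.2 in vg and 19.6 and 22.1 in vg_simj (-2.68, adjusted p = 0.0215). The groups did not overlap in these genes, but the rule that named the largest falls required this, so it adds no support. Of the genes in this paragraph, onecut, Sidpn, kat-60L1 and nolo passed the filter only through vg. Ekar, a glutamate receptor subunit of the kainate type, had 716.9 and 887.0 in vg and 156.0 and 136.5 in vg_simj (-2.43 ± 0.17, adjusted p = 0.00171). The secreted ADAMTS-like gene nolo had 383.1 and 546.3 in vg and 34.8 and 37.6 in vg_simj (-3.56 ± 0.34, adjusted p = 0.00524).

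The count of 7 neuronal calls was 1 without vg replicate 2, 2 without vg_simj replicate 2 and 3 without vg_simj replicate 1. The calls of Ank2 and onecut were lost without vg replicate 2 or vg_simj replicate 2, that of Appl without vg replicate 2 or vg_simj replicate 1, and that of nolo without vg_simj replicate 1. The call of klg was lost without vg replicate 2 or either vg_simj array, and that of kat-60L1 for each vg or vg_simj array. Glia enter the eye disc along the optic stalk. Of 10 measured glial genes 8 had a negative log2 change, none was called (2 at unadjusted p under 0.05) and the median was -0.39. Both vg_simj arrays were below both vg arrays in 7 of the 10 (70%), against 17.5% of all genes. That share was near those of the photoreceptor and neuronal lists. The summed glial signal was 16028.2 and 17971.2 in vg and 14744.8 and 14313 in vg_simj, and their part in these falls was not tested.

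Only 15 of the 67 genes that fell were in the photoreceptor or neuronal list, and 47 were in none of the 37 lists. Those outside the naming rule, chosen after their values were seen, included further genes with known neuronal products. The microtubule-associated tau fell by 2.19, the kinesins Khc-73 and unc-104 by 1.94 and 1.31, and the acetylcholinesterase gene Ace by 1.63. The protein kinase C gene inaC, used in phototransduction, fell by 1.68, and Nrt, an adhesion gene of axons, by 1.23. The zinc-finger gene peb, which acts in the developing retina, fell by 1.81. A second Khc-73 probe set had a change of -0.21 and was not called.

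In 4 lists of signalling genes, 1 or 2 members each fell and the others were not called, beside 0.863% of all genes called lower. In the Notch and E(spl) list 1 of 18 was called, E(spl)mdelta-HLH, a bHLH repressor that Notch switches on. It had 3657.0 and 3539.6 in vg and 1926.9 and 2140.6 in vg_simj (-0.82 ± 0.12, limma adjusted p = 0.0210). Both vg_simj arrays were lower in 13 of the 18 genes (72.2%), against 17.5% of all genes, 16 of 18 log2 changes were negative, and the median was -0.31. The ubiquitin ligase gene neur (-0.85, adjusted p = 0.102) and E(spl)m4-BFM (-0.50, adjusted p = 0.140) were not called.

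In the EGF receptor list, 1 of 14 was called. The gene aos, whose secreted product restrains the receptor, had 805.2 and 880.3 in vg and 288.9 and 420.9 in vg_simj (-1.27 ± 0.19, adjusted p = 0.0269). Egfr itself had a change of 0.28 (adjusted p = 0.696). Of 20 Dpp and activin genes, the activin ligand gene Actbeta was called, with 170.1 and 174.2 in vg and 45.3 and 28.8 in vg_simj (-2.17 ± 0.30, adjusted p = 0.0210). Of 19 genes of JNK signalling and tissue damage, Traf4 (778.8 and 954.4 to 365.1 and 446.4, -1.09, adjusted p = 0.0307) and the TNF ligand gene egr (652.9 and 600.9 to 366.2 and 380.1, -0.74, adjusted p = 0.0435) were called lower. A second, dim egr probe set had a change of -0.27 (adjusted p = 0.933) and was not called. Each of these 5 calls was lost when some single array was left out, that of egr whichever of the 8 it was, and those of Actbeta and E(spl)mdelta-HLH for each vg or vg_simj array. The call of Traf4 was lost for each vg, simj or vg_simj array, and that of aos without either vg or simj array or vg_simj replicate 1.

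The rises were few and of unlike kinds. The probe set of Jig had 7.2 and 1.5 in vg and 1434.8 and 410.8 in vg_simj, and it was at or below 14.8 on the lacZ and simj arrays. The vg_simj replicates differed widely from each other but both were far above the rest. Its log2 change was 6.88 ± 0.96 (limma, adjusted p = 0.0205), and 3.63 with a pseudocount of 64.

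The gene Drs encodes drosomycin, an antifungal peptide. It had 24.4 and 20.7 in vg and 3343.4 and 832.7 in vg_simj, with 29.5 and 46.6 in lacZ and 137.2 and 98.3 in simj. The simj arrays were above lacZ and vg as well, and the log2 change from vg to vg_simj was 6.05 ± 0.59 (adjusted p = 0.00524). Drs was the called member of 23 innate immunity genes, whose median log2 change was 0.31.

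Vajk2 and Vajk3 carry a shared family name. Vajk3 had 233.2 and 109.1 in vg and 1906.6 and 1772.7 in vg_simj, and 114.8 to 219.4 on the lacZ and simj arrays (3.50 ± 0.33, adjusted p = 0.00524). Vajk2 had 854.7 and 582.7 in vg and 3479.6 and 2784.2 in vg_simj on the probe set of larger change (2.14 ± 0.29, adjusted p = 0.0172). On its other probe set it had 169.4 and 157.9 in vg and 596.7 and 553.7 in vg_simj (1.80 ± 0.17, adjusted p = 0.00524). In both genes the vg_simj arrays stood above all 6 others.

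A further set was high in both groups with UAS-simj. CG6282 had 17.1 and 13.1 in vg, 225.0 and 230.1 in vg_simj, 11.7 and 8.2 in lacZ and 176.5 and 203.5 in simj (3.70 ± 0.36, adjusted p = 0.00524). The ionotropic receptor gene Ir76a had 34.3 and 13.9 in vg, 238.9 and 212.2 in vg_simj, 31.6 and 28.9 in lacZ and 197.2 and 144.6 in simj (3.20 ± 0.42, adjusted p = 0.0162). CG6763 had 73.8 and 33.9 in vg and 963.7 and 315.1 in vg_simj (3.39 ± 0.53, adjusted p = 0.0289). The remaining named rises were CG5002 (1.68, adjusted p = 0.0490), the long noncoding RNA CR32027 (272.1 and 275.4 to 717.4 and 785.4, 1.45, adjusted p = 0.0235) and the sodium channel gene rpk (139.5 and 150.8 to 403.1 and 315.1, 1.28, adjusted p = 0.0215). The translation factor gene eIF4E1 (0.62, adjusted p = 0.0616) and CG10353 (1.15, adjusted p = 0.0623) came next by p and were not called.

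Without vg_simj replicate 1 the number of rises was 2, and without vg replicate 1 it was 32. Among the named rises, Drs kept its call without each array in turn, and it was lost under the stricter filter on low signals. The calls of Jig, Ir76a and the brighter Vajk2 probe set were lost without vg replicate 2 or either vg_simj array, and those of CG6282 and Vajk3 without either vg_simj array. The call of the other Vajk2 probe set was lost without vg_simj replicate 1, and that of CR32027 for each vg or vg_simj array and that of rpk for each vg, simj or vg_simj array. The call of CG5002 was lost for each array except vg_simj replicate 2, and that of CG6763 for each except vg replicate 1 and vg_simj replicate 2.

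Wing genes, the programme that vg is known to select, had no call in this comparison. Of 41 measured wing patterning genes none was called by limma and 10 passed an unadjusted p of 0.05, 8 of them higher in vg_simj, where 0.994% of all genes were called. Both vg_simj arrays were above both vg arrays in 14 of 41 (34.1%), against 19.8% of all genes, and the median log2 change was 0.12. Of 10 measured direct targets of Vestigial and Scalloped, none was called, 6 (60%) were above on both arrays and the median was 0.34, with 5 higher and 1 lower at an unadjusted p under 0.05. The gene vg, whose transgene was driven in both groups, is in both lists and counts among the 8, the 14, the 6 and the 5.

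The wing hinge and pouch gene nub, a POU factor, had 258.7 and 375.9 in vg and 781.4 and 943.2 in vg_simj, against 78.9 to 210.1 on the lacZ and simj arrays. The groups did not overlap, but the log2 change of 1.45 ± 0.36 had an adjusted p of 0.153. Cyp310a1 had 370.6 and 164.1 in vg and 968.3 and 878.8 in vg_simj (1.89 ± 0.40, adjusted p = 0.0997), and it was called without vg replicate 1, whose value was the higher of its pair. The T-box gene bi had 1550.4 and 1648.7 in vg and 2379.9 and 2453.4 in vg_simj (0.60 ± 0.14, adjusted p = 0.140).

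The distal appendage gene Dll had 1129.5 and 1061.5 in vg and 1579.3 and 1908.6 in vg_simj (0.66 ± 0.15, adjusted p = 0.135), and its other probe sets had changes of 0.37 and -0.09. The ligand gene dpp had 1060.4 and 1003.1 in vg and 1395.2 and 1492.0 in vg_simj (0.48 ± 0.12, adjusted p = 0.156), and the inhibitory SMAD gene Dad had a change of 0.76 (adjusted p = 0.177). All of these lay above vg on both vg_simj arrays for the probe sets named first. The genes sd, wg and N were not analysed here, since no probe set carried their symbol alone.

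Retinal determination genes upstream of photoreceptor differentiation had no call either, where 0.994% of all genes were called. Of 11 measured, 4 passed an unadjusted p of 0.05, all lower, and the median log2 change was -0.04. The pair dan and danr had changes of -0.80 (adjusted p = 0.135) and -0.77 (adjusted p = 0.140), eya of -0.53 (adjusted p = 0.231) and so of -0.46 (adjusted p = 0.33). The median signal of the list was 964.2 and 1091 in vg and 662.8 and 764.6 in vg_simj, which did not overlap, although the median of the log2 changes was near 0. In the morphogenetic furrow list 1 of 11 was called, ro, and the median was 0.02.

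The other NuRD genes had small changes, and at the share called over all genes a list this short would seldom hold a call. None of 6 measured NuRD genes and partners was called, simj included, where 0.994% of all genes were. At an unadjusted limma p under 0.05 there was 1, simj itself, higher. The median log2 change of the 6 was 0.01. The ATPase gene Mi-2 had a change of -0.01, the deacetylase gene HDAC1 of 0.08 (adjusted p = 0.934), MTA1-like of -0.16 (adjusted p = 0.839) and the histone-binding gene Caf1-55 of 0.02. Of 25 Polycomb and trithorax genes none was called, beside the same 0.994% of all genes, and none passed an unadjusted p of 0.05.

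Lists of growth genes had no calls, where 0.994% of all genes were called. Of 28 cell cycle and replication genes none was called and none passed an unadjusted p of 0.05, while 23 log2 changes were positive, with a median of 0.15, and 13 genes (46.4%) were above on both arrays, against 19.8% of all genes. Of 38 cytosolic ribosomal protein genes, 34 had a positive change with a median of 0.12 and 1 passed an unadjusted p of 0.05, while of 69 mitochondrial ones 46 were negative with a median of -0.08. Of 38 cytochrome P450 genes 30 were positive with a median of 0.38 and 4 at an unadjusted p under 0.05. None of 45 cuticle genes was called (3 at an unadjusted p under 0.05), and their median was 0.16.

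**Figure D3:**
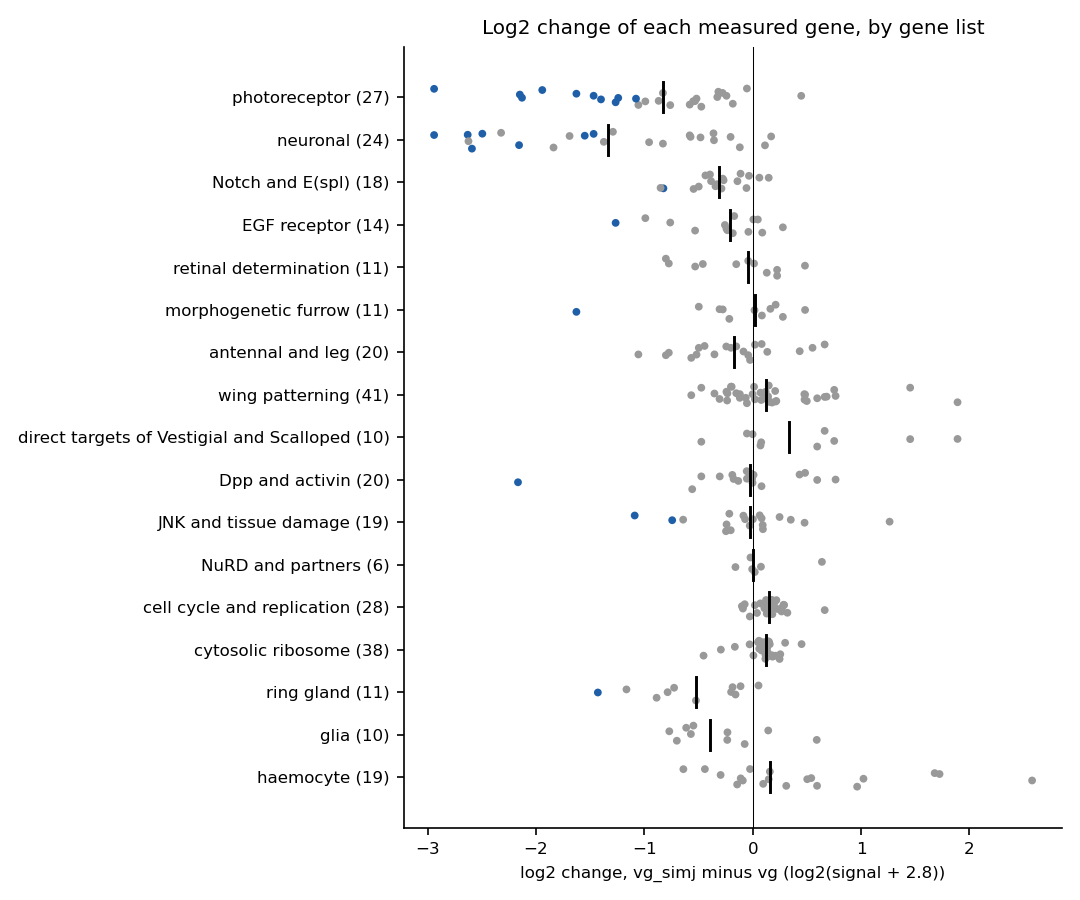
Log2 change from vg to vg_simj of each measured gene (points; blue for called lower, grey for not called) in 17 gene lists, with the number measured in brackets and the list median as a black bar. The photoreceptor median lies at -0.83 and the neuronal median at -1.33, while the wing patterning and NuRD medians lie at 0.12 and 0.01.

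The study's design allows the same step to be read without vg, from lacZ to simj. The means of that step come from other arrays, but all 8 arrays share the estimate of spread behind both sets of calls. In that step 28 of the 9612 probe sets (0.291%) were called, 18 (0.187%) lower and 10 (0.104%) higher. Of the 79 falls seen in vg discs, 78 also had a negative log2 change from lacZ to simj, and in 74 both simj arrays were below both lacZ arrays, against 24.4% of all probe sets. Their median log2 change was -1.84 in vg discs and -1.03 in lacZ discs, and 77 of 79 were larger in size in vg discs. The falls were chosen by the test in vg discs, so a larger size there is partly given by that choice.

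The median signals of the 79 falls were 495.8 and 541.1 in lacZ, 412.3 and 480.8 in vg, 286.3 and 242.0 in simj, and 122.9 and 130.2 in vg_simj. These probe sets were called as lower in vg_simj than in vg, so that part of the order was given by the choice. Of the 16 rises, 13 had a positive change from lacZ to simj and in 12 both simj arrays were higher, against 15.6% of all probe sets. The 10 probe sets called in both steps were 35.7% of the 28 and 10.5% of the 95. With a symbol, these were miple1, Ekar, gogo, gl, CG9150 and E(spl)mdelta-HLH among the falls and CG6282 among the rises. Across the 95 called probe sets, the changes in the 2 backgrounds had a Pearson r of 0.752 and a Spearman rho of 0.697, as a description over probe sets chosen by one of these changes. Over all 9612 probe sets they were 0.536 and 0.355.

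The difference between the steps was tested as an interaction, which called 5 of 9612 probe sets (0.052%), with 380 at an unadjusted p under 0.05. For miple1 the log2 change was -5.14 in vg discs and -1.32 in lacZ discs, an interaction of -3.82 ± 0.24 (limma, adjusted p = 0.00362). For mthl8 it was -4.95 against -0.54 (interaction -4.41 ± 0.35, adjusted p = 0.00964), and for CG31207 -3.21 against -0.35 (-2.87 ± 0.25, adjusted p = 0.0126). On these probe sets the 3 genes therefore fell further with simj when vg was present than when it was not. The second mthl8 probe set had -2.57 against -1.13, an interaction of -1.44 ± 0.43 that was not called (adjusted p = 0.996).

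The ring-finger gene Rnf11 had a smaller step with simj in vg discs than in lacZ discs. It had 87.1 and 43.5 in lacZ, 3297.6 and 5054.0 in simj, 2317.7 and 2067.2 in vg and 6898.6 and 7013.1 in vg_simj. It was high in every group with a UAS-vg or UAS-simj transgene, and the log2 step with simj was 5.99 from lacZ (called) and 1.67 from vg (adjusted p = 0.0639, not called; interaction -4.32 ± 0.44, adjusted p = 0.0236). A second Rnf11 probe set had 88.4 and 51.6 in lacZ, 91.5 and 129.5 in simj, 545.3 and 581.2 in vg and 558.6 and 733.7 in vg_simj. The probe sets thus disagreed: the second was high on the arrays with UAS-vg and low on the others, with a change of 0.18 from vg to vg_simj (adjusted p = 0.905). The fifth call, a probe set without a symbol, was 2908.4 and 3412.7 in lacZ and between 518.6 and 765.4 on the other 6 arrays. For Vajk3 the interaction was 2.90 (adjusted p = 0.412) and for the Vajk2 probe set of smaller change 1.82 (adjusted p = 0.140), neither of them called. The number of interaction calls was 0 without simj replicate 1 (287 at an unadjusted p under 0.05 in limma) and 1 without simj replicate 2 or vg replicate 2. It was 2 without lacZ replicate 2 or either vg_simj array, and 10 without lacZ replicate 1.

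**Figure D4:**
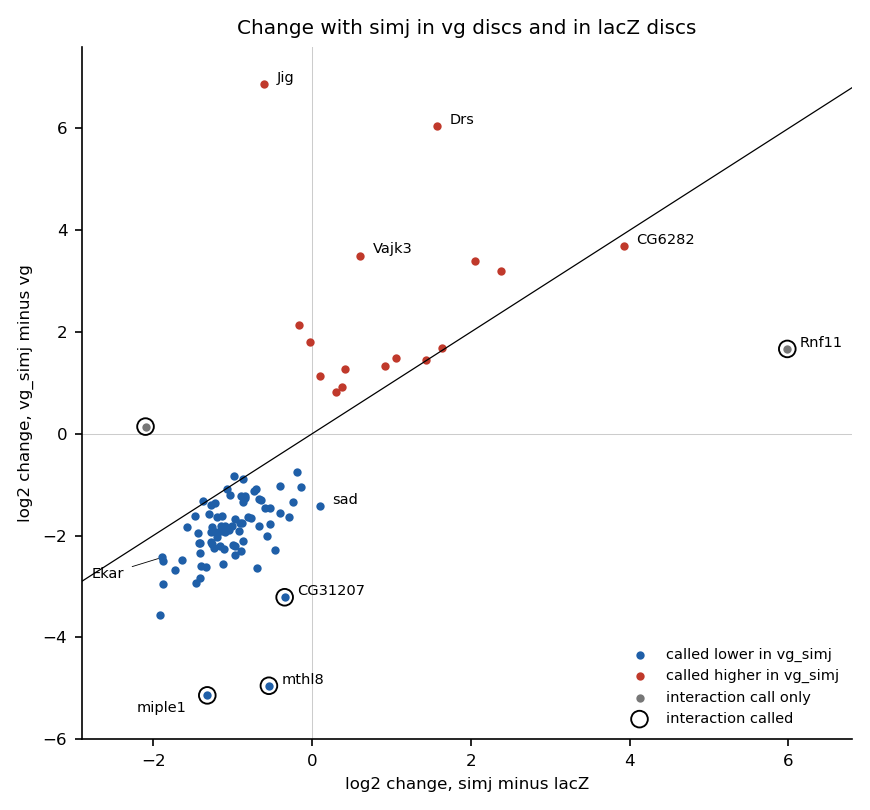
Log2 change from lacZ to simj (horizontal) against that from vg to vg_simj (vertical) for the 95 probe sets called in the latter and for the 2 called only in the interaction; open circles mark the 5 interaction calls and the line marks equal change. Of the 79 falls 78 lie left of zero, and 77 have a larger size on the vertical axis, with miple1, mthl8 and CG31207 farthest below the line.

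Markers of other tissues near the disc moved in part. One marker of the ring gland, which makes ecdysone, was called lower. The gene sad, an enzyme of ecdysone synthesis, had 1400.0 and 1173.2 in vg and 579.3 and 388.3 in vg_simj (-1.43 ± 0.20, limma adjusted p = 0.0213), where lacZ had 5504.1 and 6394.0 and simj 5983.6 and 6762.2. Its call was lost without either vg array or vg_simj replicate 2. Of the 11 ring gland markers sad was the only one called (9.09%), where 0.863% of all genes were called lower. Of the 11, 10 log2 changes were negative and 5 were lower at an unadjusted limma p under 0.05. Their median was -0.52. Both vg_simj arrays were below both vg arrays in 5 (45.5%), against 17.5% of all genes. The summed signal of these 11 was 8654.5 and 9060.1 in vg and 5714.4 and 4649.6 in vg_simj, and 26785.4 to 40072 on the lacZ and simj arrays. Among the others, spok (-1.17, adjusted p = 0.120) and nvd (-0.89, adjusted p = 0.135) were not called.

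Salivary gland genes varied between replicates. Their summed signal over 14 genes was 6190.4 and 1165.4 in vg and 15831.9 and 2215.3 in vg_simj, high on replicate 1 of both groups. The gene ng1 had 1367.7 and 10.3 in vg and 5857.6 and 528.5 in vg_simj. On vg replicate 1, where the salivary sum exceeded that of vg_simj replicate 2, Jig read 7.2 and Drs 24.4, while on vg_simj replicate 2 they read 410.8 and 832.7. The salivary genes did not all move alike between vg replicate 1 and vg_simj replicate 2. There ng1 read 1367.7 and 528.5, and Sgs4 37 and 250.5. Jig, Drs, CG6763 and CG5002 were all higher on vg_simj replicate 1 than on replicate 2, and the part of salivary tissue in their rises was not tested.

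The haemocyte sum over 21 genes was 15566.7 and 16090.2 in vg and 15603.2 and 15685 in vg_simj, a ratio of 0.988 between the groups. Of 19 haemocyte markers measured none was called (6 at an unadjusted p under 0.05, 4 of them higher). Both vg_simj arrays were above both vg arrays in 5 of the 19 (26.3%) and below them in 3 (15.8%). These shares were near those of all genes, 19.8% and 17.5%. Among the 5 was Hml, with 129.5 and 80 in vg and 233.6 and 188.3 in vg_simj. The sum of the 13 eye-antennal markers was 20018 and 21266.4 in vg and 15880.9 and 19946.2 in vg_simj, a ratio of 0.868, in which gl was the called member. Neuroblast and brain markers had a ratio of 1.02, tracheal ones of 0.932, muscle ones of 1.2 and fat body ones of 0.937. The muscle sum was 33914.4 and 16068.9 in vg and 32451.2 and 27742.2 in vg_simj, so the groups overlapped.

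**Figure D5:**
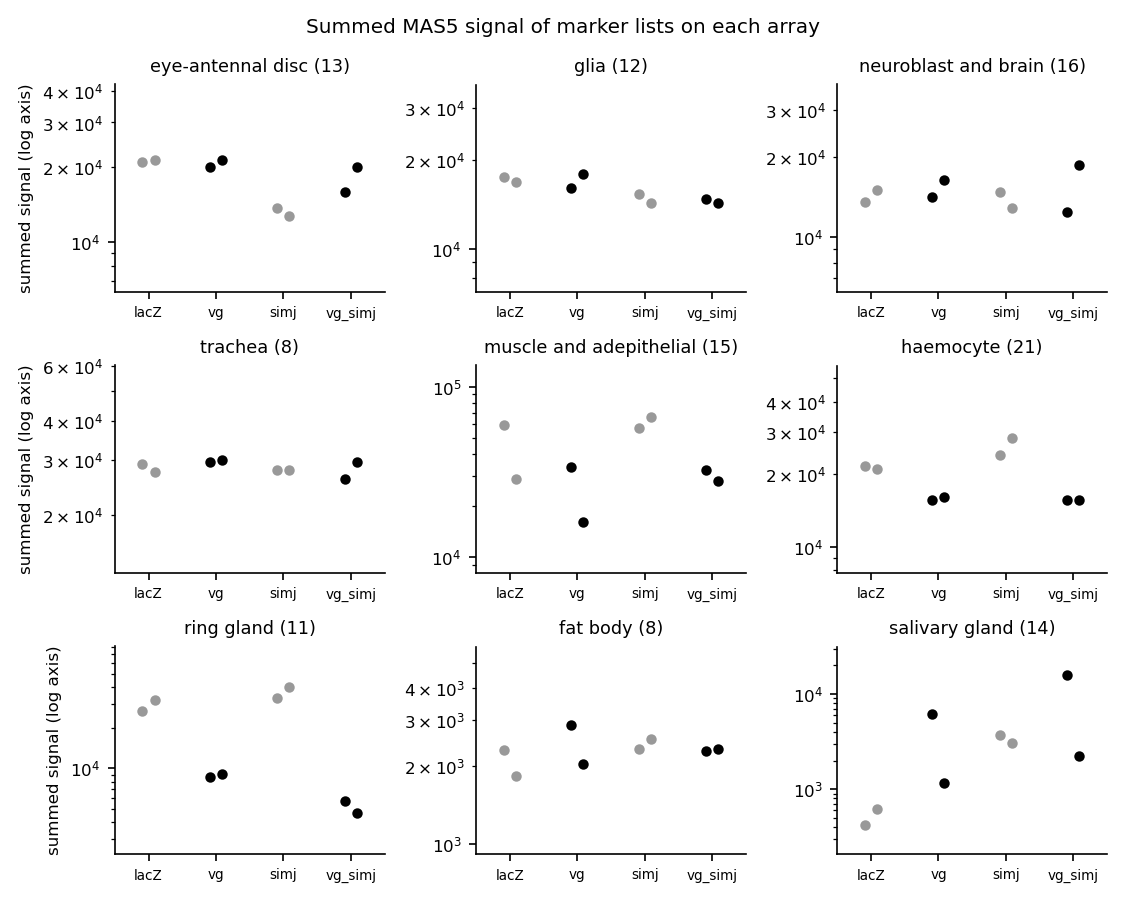
Summed MAS5 signal on a log axis of 9 marker lists, with the number of genes on the array in brackets; each point is an array, black for vg and vg_simj and grey for lacZ and simj. The haemocyte sums of vg and vg_simj are nearly level (ratio 0.988), the ring gland sum is lower in vg_simj (ratio 0.585) and the salivary gland sum is highest on replicate 1 of both vg groups.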

How the data were processed

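Signals of 8 Affymetrix arrays were analysed. The deposited intensity values were MAS5 signals per the submitters' processing notes, which give no version. On each array they had a 2% trimmed mean of 500. No detection calls were used. All 8 arrays entered a group-means model in limma 3.58.1 (R 4.3.3) on log2(signal + 2.8), where 2.8 was the 10th percentile of all values, with an intensity trend and Benjamini-Hochberg adjustment over the 9612 probe sets. The code was checked on simulated data. Of the 18952 probe sets, 13647 carried 1 symbol in the platform annotation, 402 several and 4903 none. Gene lists used the probe set of highest mean for each gene and were given as counts and medians, without a test. The members and lists were chosen with earlier results of these data known.

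Genes were named by rule. These were vg, simj and ey, and the 12 largest rises and falls called without overlap. Where fewer passed, those of smallest p followed. Also named were the 3 genes of smallest p in each list with a call or of 7 chosen lists, and the 6 of smallest p in the interaction. Other names were chosen after their values were seen, as were list members beyond these. A planned count of promoter motifs was not run here. Precision was limited by the number of arrays.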

Additional observations from a re-analysis of the deposited data

Results flagged for a closer look

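The 5 results below differed between discs with and without vg by the interaction test in limma. The log2 change with simj was lower in vg discs than in lacZ discs by a difference of -3.82 for miple1 (SE 0.24, adjusted p = 0.00362), -4.41 for mthl8 (SE 0.35, adjusted p = 0.00964), -2.87 for CG31207 (SE 0.25, adjusted p = 0.0126) and -4.32 for Rnf11 (SE 0.44, adjusted p = 0.0236). A second mthl8 probe set had a difference of -1.44 and was not called. For Rnf11 the log2 change was positive in both, 5.99 in lacZ discs and 1.67 in vg discs. For a probe set without a symbol the difference was 2.24 (SE 0.23, adjusted p = 0.0236). Without simj replicate 1 none of these calls remained (287 probe sets at an unadjusted p under 0.05).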

How the results depend on the processing

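Of the 95 calls (16 higher, 79 lower), the filter at the 75th percentile gave 35 (7 higher, 28 lower), a 2-fold minimum gave 10 (3 and 7) and a fit to only the groups compared gave 41, of them 30 lower. With 1 probe set per gene there were 10 higher. The 5 interaction calls numbered 3 with a pseudocount of 64 and 2 under the stricter filter or the 2-fold minimum. The 28 calls of simj against lacZ numbered 45 with a pseudocount of 64, 8 without the intensity trend, 11 with 1 probe set per gene, 1 with the 2-fold minimum and 6 in a fit to only these groups. Leaving out each array in turn gave 22 to 88 calls in all, 2 to 32 higher and 15 to 70 lower, 0 to 10 for the interaction and 1 to 33 for simj against lacZ. It gave 1 to 10 photoreceptor and 1 to 8 neuronal calls. Quantile normalization gave 90 calls and median centring 102.

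With the replicate number as a block there were 117 calls for the main comparison, 5 for the interaction and 57 for simj against lacZ. Deviations of same-numbered arrays correlated at 0.465 between vg and vg_simj and at 0.0597 to 0.379 between other groups, and with 2 pairs the numbers were not taken as pairs. Of 34 called probe sets named by rule, 4 kept their call under every setting that tested them and 30 lost it under at least 1. Of those 4, only Ekar was tested under the filter at the 75th percentile. Of 29 not called, 5 passed somewhere. Without each array in turn the log2 change ran from -0.023 to 0.28 for ey and from -0.14 to 0.29 for HDAC1, reversed without vg_simj replicate 2.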

Other observations

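Several large differences between the groups had replicates far apart and were not called. CG13460 had 699.0 and 11.2 in vg and 13955.1 and 3175.5 in vg_simj, and CG14852 had 671.3 and 12.1 in vg and 3383.4 and 1697.1 in vg_simj. The prophenoloxidase gene PPO1, a marker of crystal cells, had 219.3 and 23 in vg and 646.1 and 312.0 in vg_simj (2.58, limma adjusted p = 0.311), and PPO2 had 342.6 and 120.4 in vg and 808.3 and 534.8 in vg_simj (1.68, adjusted p = 0.179). Both lay higher on both vg_simj arrays. Ilp8, which discs secrete when damaged, had 218.2 and 300.4 in vg and 851.4 and 448.8 in vg_simj (1.26, adjusted p = 0.612). The glial gene repo had a smaller difference with closer replicates and was not called either. It had 602.9 and 574.6 in vg and 303.3 and 390.2 in vg_simj (-0.77, adjusted p = 0.115). These genes were chosen after their values were seen.

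On chromosome 4, 3 of 60 genes were called (5.0%), Ekar, onecut and Actbeta, all lower. The other arms had shares of 0.383% (2R) to 1.29% (3L and 3R).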
